A study of Mus musculus with 6 samples.

Results

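The genes described here are 10 genes of cyclic GMP (cGMP) signalling: the soluble guanylyl cyclase subunit genes Gucy1a1, Gucy1a2, Gucy1b1 and Gucy1b2, the cGMP-dependent protein kinase genes Prkg1 and Prkg2, the phosphodiesterase gene Pde5a, and the natriuretic peptide receptor genes Npr1, Npr2 and Npr3. They were chosen by symbol among 22180 genes measured on Affymetrix arrays, and all 10 were measured. The symbols were listed with earlier results of these data known. Beyond that, only the mean levels over the 6 arrays entered the choice. They decide between probe sets of a gene, and this applied only to Npr1, which has 2. The array signal of one probe set cannot be set directly against that of another, so levels are compared here between arrays and not between genes. The exceptions are the choice of a probe set and a rough mark of dim genes given below.

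Cells came from E14.5 embryos of strain 129SV, from the dorsal body wall. Both groups carry the same Ebf2(GFP)/+ allele, in which green fluorescent protein (GFP) reports on Ebf2, a gene of an early B cell factor that binds DNA. Every sample was sorted for PDGFRα, a receptor of mesenchymal cells, and then divided into Ebf2(GFP)+ (n = 3 arrays) and Ebf2(GFP)- cells (n = 3 arrays). The comparison asks how the 2 sorted populations differ, in a series that treats Ebf2 as a mark of brown and beige fat precursors. No label tells if embryos were pooled or if each replicate had its own litter. The p-values thus rest on the variation among these 6 samples alone, and that variation may be technical.

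Soluble guanylyl cyclase is a heterodimer of an alpha and a beta subunit, binds nitric oxide at a haem group and then makes cGMP from GTP. Natriuretic peptides reach the same messenger by another route, through receptors that are themselves guanylyl cyclases. cGMP activates the kinases encoded by Prkg1 and Prkg2, and phosphodiesterases such as that of Pde5a break it down. The pathway is best known for relaxing smooth muscle. In mouse it has also been tied to brown fat cells and, through the peptide receptor of Npr2 and the kinase of Prkg2, to bone growth.

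Of the 4 soluble guanylyl cyclase genes, Gucy1b1 and Gucy1a1 were higher in GFP-positive cells, as was Pde5a, and Prkg1 was lower. In the fit over all genes with limma, a linear model with variances moderated across genes, 3 of the 10 genes rose (Gucy1b1, Gucy1a1 and Pde5a), 1 fell (Prkg1) and 6 did not pass the Benjamini-Hochberg adjusted p threshold of 0.05. Among all genes tested, 2.65% were called higher, 3.84% lower and 6.49% in either direction. The median log2 change of the 10 genes was 0.06, beside 0.02 for all genes tested. The 10 genes were put together with results of these data known, so their count is a description and no sign that the pathway as a whole is enriched. The 4 genes that passed were also the only ones of the 10 whose 3 arrays of one group all lay on one side of the 3 arrays of the other. Among all genes, 22% separated in this way, 12.3% upward and 9.78% downward.

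**Figure D1:**
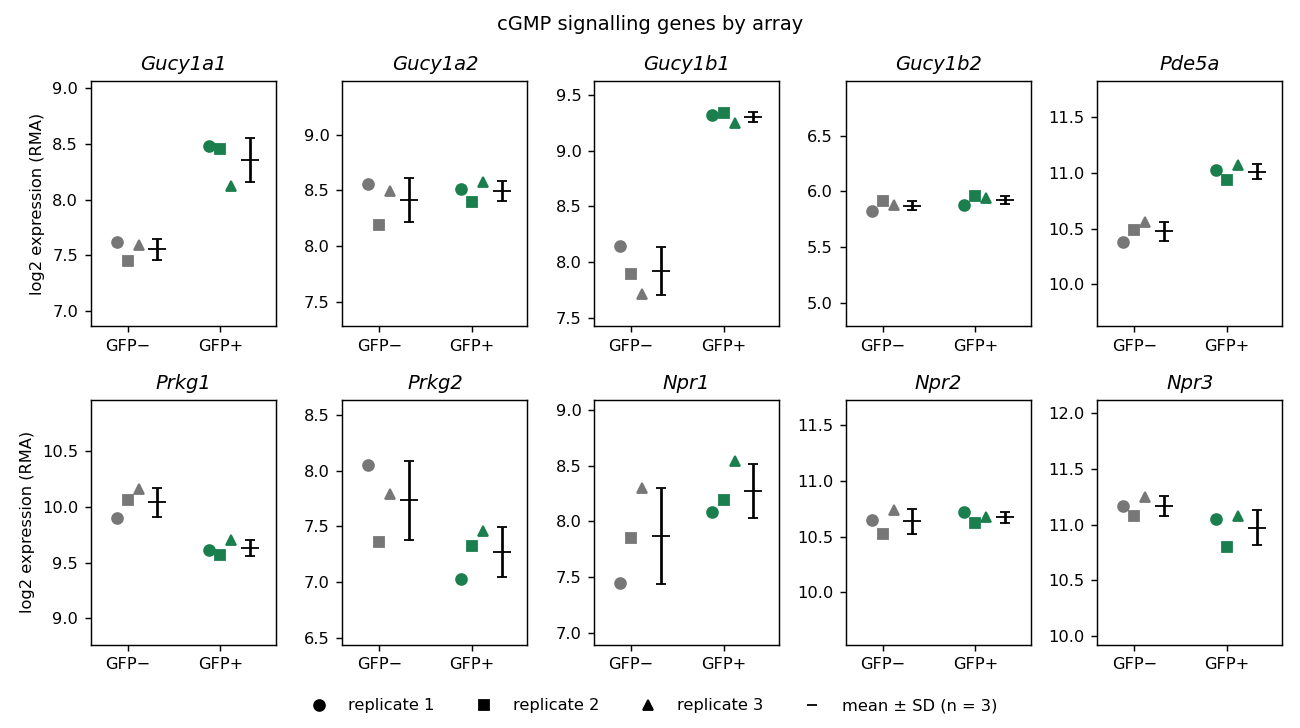
Log2 expression (vertical axes, each spanning the same range of log2 units but placed at its own level) of the 10 genes in the 3 GFP-negative arrays (grey) and the 3 GFP-positive arrays (green). Symbols mark the replicate number, and bars give the mean ± SD (n = 3). The groups lie apart for Gucy1a1, Gucy1b1, Pde5a and Prkg1 and overlap for the other 6 genes.

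Gucy1b1, which encodes the beta 1 subunit that holds the haem, changed most of the 10 genes. Its log2 level was 8.15, 7.90 and 7.72 in GFP-negative replicates 1, 2 and 3, and 9.32, 9.34 and 9.25 in GFP-positive replicates 1, 2 and 3. The lowest GFP-positive array lay above the highest GFP-negative array, and the GFP-positive arrays lay closer together. The means were 7.92 ± 0.217 (SD, n = 3) and 9.30 ± 0.0469 (SD, n = 3), a 2.61-fold rise (log2 change 1.38 ± 0.11 SE, limma adjusted p = 0.00122). By size of change, it ranked 228 among the 22180 genes.

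Gucy1a1 encodes alpha 1, the usual partner of beta 1. It read 7.62, 7.45 and 7.59 in the GFP-negative arrays and 8.48, 8.46 and 8.13 in the GFP-positive arrays. Again the groups did not overlap, with GFP-positive replicate 3 nearest to the other group. The means of 7.55 ± 0.0914 and 8.35 ± 0.198 (SD, n = 3 each) make a 1.74-fold rise (log2 change 0.80 ± 0.11 SE, limma adjusted p = 0.00836). In each of the 3 same-numbered pairs of arrays, both Gucy1b1 and Gucy1a1 were higher in the GFP-positive array.

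The other 2 subunit genes did not pass. Gucy1a2, the gene of the alternative alpha subunit, read 8.56, 8.19 and 8.50 in GFP-negative arrays and 8.51, 8.39 and 8.58 in GFP-positive arrays. Its groups overlapped throughout, and the log2 change was 0.08 with a 95% interval from −0.18 to 0.34 (limma adjusted p = 0.790). Gucy1b2, a beta subunit gene known in mouse from a class of olfactory neurons, read 5.83, 5.91 and 5.88 against 5.88, 5.95 and 5.94. All 6 of its values lay below the 40th percentile of gene means (log2 6.78), which serves here as a mark of dim genes since the files carry no detection calls. Its log2 change was 0.05 with an interval from −0.07 to 0.18 (limma adjusted p = 0.698), and a dim probe set may not show a change.

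Whether 2 genes of one family differ in their change was tested by the difference of their log2 values within each array, for 7 pairs. The change of Gucy1a1 exceeded that of Gucy1a2 by 0.72, and the change of Gucy1b1 exceeded that of Gucy1b2 by 1.33. The probe set of Gucy1b2 lay below the mark of dim genes, so the latter difference may only repeat the change of Gucy1b1. Within the heterodimer pair, the change of Gucy1a1 was smaller than that of Gucy1b1 by a log2 difference of −0.58. For these 3 pairs the 6 differences separated the groups without overlap, which gives a two-sided exact permutation p of 0.1, the smallest that 3 arrays against 3 allow (0.175 adjusted over the 7 pairs). This permutation test therefore cannot place these differences past 0.05.

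**Figure D2:**
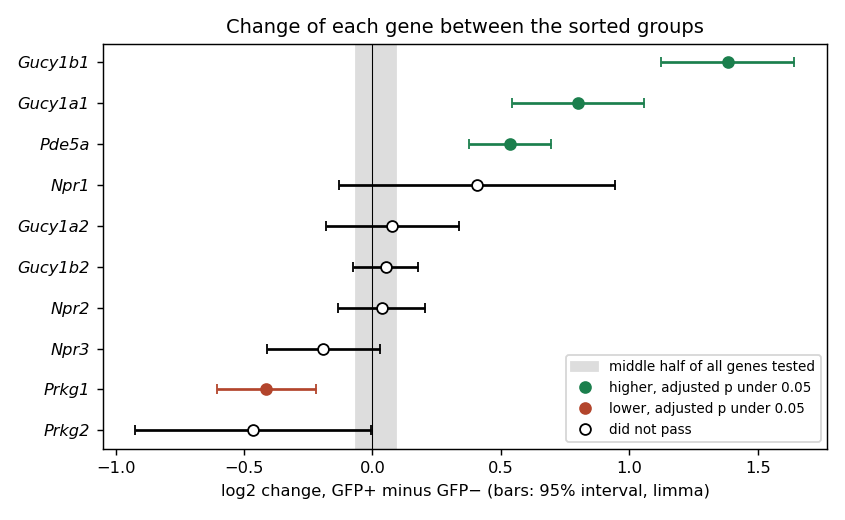
Log2 change (horizontal axis, GFP-positive minus GFP-negative) of the 10 genes with limma's 95% intervals, filled where the adjusted p was under 0.05. The grey band runs from the lower to the upper quartile of all genes tested, −0.07 to 0.09. Gucy1b1 stands farthest out at 1.38, and the intervals of Gucy1a2, Gucy1b2, Npr1, Npr2 and Npr3 include 0.

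Gucy1b1 and Gucy1a1 also share their position. In RefSeq's gene order for assembly GRCm38.p6 they are direct neighbours on chromosome 3, with 0 protein-coding genes between them, and both are read from the minus strand. The nearest 2 protein-coding genes on either side were looked up after the values of the pair were known. Beyond Gucy1b1, Asic5 and Tdo2 lay below the mark of dim genes in both groups, with log2 changes of 0.01 and 0.02 (limma adjusted p = 0.930 and 0.895). Beyond Gucy1a1, Map9, a gene of a microtubule-associated protein, rose from 8.36 ± 0.0537 to 8.78 ± 0.0812 (SD, n = 3 each), a log2 change of 0.42 ± 0.06 SE (limma adjusted p = 0.0122). Whether the call of Map9 holds with an array left out or under other processing was not tested. The next gene, Npy2r, a neuropeptide Y receptor gene, had a log2 change of 0.00 ± 0.13 SE (limma adjusted p = 0.998).

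The sequences before the starts of the 3 genes that rose are shown because the cells were sorted on a reporter of a DNA-binding factor. All 3 genes were higher in GFP-positive cells, and whether they share a regulator was not tested. RefSeq promoter sequences of GRCm38.p6 were found for 9 of the 10 genes (11 sequences), and Prkg2 is named only. The 250 bases upstream of each start are given 5′ to 3′ on the gene's own strand, with capitals for the GC box motif GGGCGG, for the motif CCAAT that is named for its letters, for the TATA box motif TATAAA and for CCCNNGGG, the core of the palindrome known to bind early B cell factors (EBF), each searched on both strands. The coordinates are chr3:82074712-82074961 (minus strand) for Gucy1b1, chr3:82145651-82145900 (minus strand) for the more upstream of 2 listed starts of Gucy1a1, and chr3:122728908-122729157 (plus strand) for Pde5a.
Gucy1b1: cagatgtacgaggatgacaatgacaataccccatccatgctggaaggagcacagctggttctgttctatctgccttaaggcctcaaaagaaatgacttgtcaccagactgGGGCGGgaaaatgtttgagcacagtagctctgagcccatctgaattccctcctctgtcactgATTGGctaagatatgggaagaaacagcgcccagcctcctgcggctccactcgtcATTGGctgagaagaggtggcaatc
Gucy1a1: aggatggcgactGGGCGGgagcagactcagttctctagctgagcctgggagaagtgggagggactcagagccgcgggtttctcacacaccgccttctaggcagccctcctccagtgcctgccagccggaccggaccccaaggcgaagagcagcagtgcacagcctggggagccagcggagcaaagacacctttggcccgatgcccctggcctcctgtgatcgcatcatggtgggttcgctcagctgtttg
Pde5a: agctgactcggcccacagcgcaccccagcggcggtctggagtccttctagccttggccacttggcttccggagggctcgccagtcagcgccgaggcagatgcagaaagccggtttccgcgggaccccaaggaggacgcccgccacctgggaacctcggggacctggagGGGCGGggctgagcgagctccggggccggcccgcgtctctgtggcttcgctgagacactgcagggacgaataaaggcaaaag

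Each of the 3 windows holds 1 GC box, a motif found in 32.7% of all 32851 promoter windows of the same length. The motif also lies in the windows of Gucy1a2, Gucy1b2 and Npr1, which did not pass, and in both windows of Prkg1, which fell. The other window of Gucy1a1 and those of Npr2 and Npr3 have none. Gucy1b1 also holds 2 CCAAT boxes on the opposite strand (33.8% of all windows have at least 1), and none of the 11 windows of the 9 genes holds TATAAA (12.4% of all windows) or the CArG box of serum response factor (1.47%). The full EBF palindrome, which is the core with T before and A after it, present in 0.779% of all windows, was in none of the 11 windows of the 9 genes. Its core, present in 11.8% of all windows, was in 2, one before the other start of Gucy1a1, which rose, and one before a start of Prkg1, which fell. The 30 bases around these matches are at chr3:82145137-82145166 and chr19:31664578-31664607, both on the minus strand, with the core in capitals.
Gucy1a1: gatctcgttcaCCCCTGGGaagcaagatca
Prkg1: ccctcctcccgCCCGTGGGtcactgcgcct

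A match of letters is no binding site, and a window without a match says nothing about binding by Ebf2. The GC content of the 3 windows shown was 51.2% for Gucy1b1, 64.0% for Gucy1a1 and 68.4% for Pde5a.

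Pde5a, whose product hydrolyses cGMP and is the target of sildenafil, rose as well. It read 10.38, 10.49 and 10.56 in GFP-negative arrays and 11.03, 10.94 and 11.07 in GFP-positive arrays. All 3 GFP-positive values lay above all 3 GFP-negative ones, by more than the spread within either group. The means were 10.48 ± 0.0877 and 11.01 ± 0.0665 (SD, n = 3 each), a 1.45-fold rise (log2 change 0.54 ± 0.07 SE, limma adjusted p = 0.00653).

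Prkg1 encodes the main cGMP-dependent kinase of smooth muscle and, in mouse, a kinase needed for brown fat cell differentiation. It went the other way, with 9.90, 10.07 and 10.16 in GFP-negative arrays and 9.61, 9.57 and 9.71 in GFP-positive arrays. The groups did not overlap, and the gap between the nearest arrays was smaller than for the 3 genes that rose. The means of 10.04 ± 0.131 and 9.63 ± 0.069 (SD, n = 3 each) make a 1.33-fold fall (log2 change −0.41 ± 0.08 SE, limma adjusted p = 0.0317). This call was lost when any 1 array other than GFP-negative replicate 1 was left out, with adjusted p-values of up to 0.124 and log2 changes between −0.45 and −0.35 in those 5 fits.

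Prkg2, the gene of a membrane-bound kinase known from gut and growth plate, had a log2 change of about the same size but a wider spread. Its values were 8.05, 7.36 and 7.79 in GFP-negative arrays and 7.02, 7.33 and 7.46 in GFP-positive arrays. GFP-negative replicate 2 lay within the range of the GFP-positive arrays. The log2 change was −0.46 ± 0.19 SE (limma adjusted p = 0.276). The changes of Prkg1 and Prkg2 differed by 0.05 within arrays (two-sided exact permutation p = 1), and the sign of that difference turned when replicate 1 of either group was left out (−0.18 without the GFP-negative and −0.06 without the GFP-positive array).

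**Figure D3:**
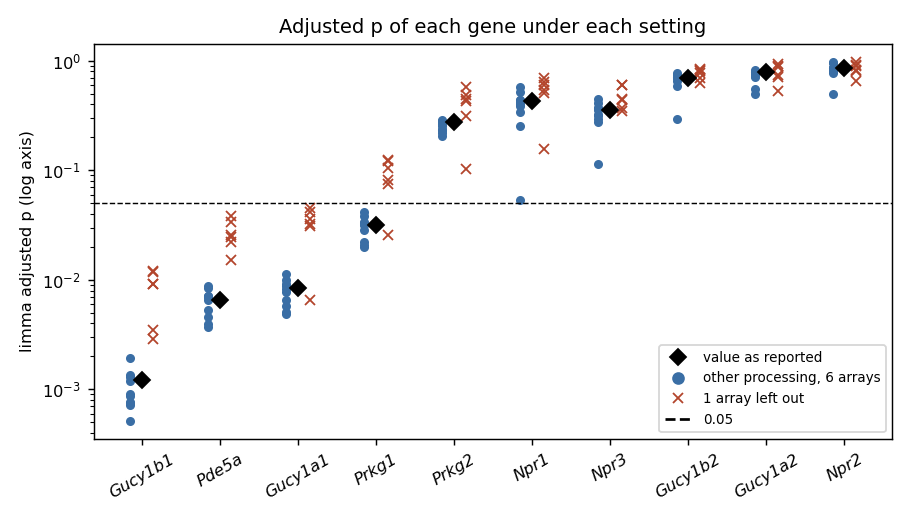
Limma adjusted p (vertical log axis) of the 10 genes in the fit reported here (black diamonds), under 10 other processing settings with all 6 arrays (blue) and with 1 array left out (red crosses). The dashed line is 0.05. Gucy1b1, Gucy1a1 and Pde5a stayed below it in every setting drawn, and Prkg1 crossed it in 5 of the 6 fits that left out an array.

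None of the natriuretic peptide receptor genes passed. Npr1, the receptor of atrial and B-type natriuretic peptides, read 7.44, 7.85 and 8.30 in GFP-negative arrays and 8.08, 8.19 and 8.55 in GFP-positive arrays. The groups overlapped, and replicate 3 was the highest of each group. The log2 change was 0.41 with a 95% interval from −0.13 to 0.94 (limma adjusted p = 0.430). It was 0.20 without GFP-negative replicate 1, 0.27 without GFP-positive replicate 3 and 0.63 without GFP-negative replicate 3. Within same-numbered pairs it was 0.64, 0.34 and 0.24, and with the replicate number as a block the adjusted p was 0.0536, just short of the threshold. A dimmer probe set of Npr1, with a mean of 6.76, had a log2 change of −0.07 ± 0.10 SE (limma adjusted p = 0.818 in a fit of single probe sets), so the 2 probe sets of this gene pointed in different directions and neither passed. Their mean had a log2 change of 0.17.

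Npr2, the receptor of C-type natriuretic peptide, was nearly level. It read 10.65, 10.52 and 10.74 in GFP-negative and 10.72, 10.62 and 10.67 in GFP-positive arrays. The log2 change of 0.04 had a 95% interval from −0.13 to 0.21 (limma adjusted p = 0.859), which leaves room for changes of up to about that size in either direction. Npr3 encodes a receptor without a cyclase domain that clears the peptides, and it read 11.17, 11.08 and 11.25 against 11.05, 10.80 and 11.08. GFP-positive replicate 3 lay just above GFP-negative replicate 2, so the groups overlapped. The log2 change was −0.19 with an interval from −0.41 to 0.03 (limma adjusted p = 0.359).

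The difference of Npr3 and Npr2 within arrays separated the groups, at 0.52, 0.56 and 0.51 in GFP-negative and 0.33, 0.17 and 0.40 in GFP-positive arrays. The 2 changes differed by −0.23 (two-sided exact permutation p = 0.1, the smallest possible, 0.175 adjusted over the 7 pairs). The differences of Npr2 and Npr3 from Npr1 overlapped between the groups, with changes that differed by −0.37 and −0.60 (two-sided exact permutation p = 0.2 for each, 0.233 adjusted). Within same-numbered pairs all 3 differences were below 0 for both, at −0.57, −0.24 and −0.31 for Npr2 and −0.76, −0.62 and −0.42 for Npr3, where an exact sign-flip permutation over 3 pairs gives p = 0.25, the smallest it can give. These differences from Npr1 use its brighter probe set. The dimmer one had a log2 change of −0.07, below the 0.04 of Npr2, so the direction for Npr2 depends on the probe set.

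The genes of most similar pattern were sought for the 2 genes with the largest changes, as those with the smallest root mean square distance between the 6 array values after each gene was set to its own mean. For Gucy1b1 they were Asb4 (distance 0.08 on the log2 scale), an ankyrin repeat and SOCS box gene, Tll2 (0.11), a tolloid-like protease gene, Shisa3 (0.14), Slc35f3 (0.15) and Il33 (0.17), a cytokine gene. Asb4 rose from 10.10 to 11.44 and Il33 from 8.02 to 9.25 in group means of log2 level. For Gucy1a1 they were Phlda1 (0.04), Xkr4 (0.07), Zfp185 (0.07), Olfr330 (0.08) and Crybg3 (0.08). All 6 values of Olfr330, from 4.41 to 5.47, lay below the mark of dim genes. Phlda1 was lowest in GFP-negative replicate 2 and, among GFP-positive arrays, in replicate 3, as Gucy1a1 was. Gucy1a1 and Gucy1b1 were not among each other's 5 nearest genes. These distances run over 6 arrays in 2 groups and describe likeness of pattern only.

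**Figure D4:**
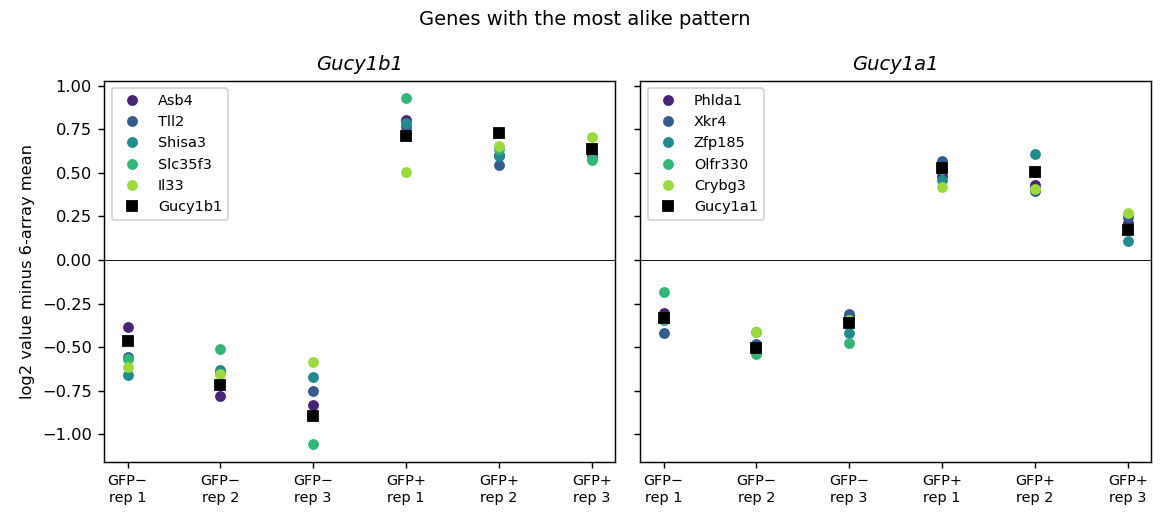
Log2 value minus the gene's own mean over 6 arrays (vertical axis) for Gucy1b1 (left, black squares) and Gucy1a1 (right, black squares) with the 5 genes nearest to each (coloured points), by array. Gucy1b1 lies near its 5 genes within each group, and Phlda1 follows Gucy1a1 at a distance of 0.04.

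Upstream of soluble guanylyl cyclase, the nitric oxide synthase genes did not pass. In the list of nitric oxide supply, 0 of 9 genes were higher and 1 was lower, with a median log2 change of 0.03. Nos1, the neuronal form, differed by 0.09 and Nos3, the endothelial form, by −0.12 (limma adjusted p = 0.635 and 0.775). The gene that fell was Ddah1, whose enzyme degrades methylated arginines that inhibit nitric oxide synthases. It read 12.08, 12.15 and 12.01 in GFP-negative and 11.38, 11.62 and 11.28 in GFP-positive arrays, a 1.57-fold fall (log2 change −0.65 ± 0.09 SE, limma adjusted p = 0.0109, or 0.0590 without GFP-positive replicate 1).

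Among the natriuretic peptide genes and the proteases that act on them, 0 of 7 were higher and 1 was lower (median log2 change 0.03). Mme, which encodes neprilysin, a protease that degrades the peptides, was 1.52-fold lower (log2 change −0.60 ± 0.09 SE, limma adjusted p = 0.0109, or 0.0503 without GFP-positive replicate 1). Nppc, the gene of C-type natriuretic peptide and so of the ligand of the Npr2 product, read 9.15, 9.93 and 9.46 in GFP-negative and 9.80, 10.57 and 9.74 in GFP-positive arrays. The groups overlapped, while each GFP-positive array lay above the GFP-negative array of its own number. Its log2 change was 0.52 ± 0.27 SE (limma adjusted p = 0.401), and it passed with the replicate number as a block (adjusted p = 0.0282). The membrane guanylyl cyclases other than Npr1 and Npr2, with their activators and peptide ligands, gave 0 calls in 9 genes in either direction by limma (0 also at an unadjusted p under 0.05). Of these, 8 lay below the mark of dim genes in both groups.

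Of 15 other genes of the cGMP phosphodiesterase list, 2 were higher and 0 lower, and the median log2 change was 0.09. Pde9a, the gene of a cGMP-specific enzyme of high affinity, read 9.37, 8.99 and 8.87 in GFP-negative and 9.99, 9.76 and 9.62 in GFP-positive arrays. The groups did not overlap, and replicate 1 was the highest of each, a 1.64-fold rise (log2 change 0.71 ± 0.15 SE, limma adjusted p = 0.0403). That call was lost without any 1 array other than GFP-negative replicate 1 (adjusted p up to 0.141). Pde1a, a calmodulin-dependent enzyme gene, was 1.38-fold higher (log2 change 0.47 ± 0.07 SE, limma adjusted p = 0.00981). Pde3a, a gene of a cGMP-inhibited cAMP phosphodiesterase, had a log2 change of 0.34 (limma adjusted p = 0.0809) and passed with the replicate block (0.0335).

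Downstream, 1 of 16 genes of kinase substrates, gated channels and exporters rose and 1 fell, with a median log2 change of 0.01. Kcnma1, a calcium-activated potassium channel gene whose channel cGMP-dependent kinase opens, read 7.71, 7.96 and 8.02 in GFP-negative and 8.43, 8.50 and 8.50 in GFP-positive arrays. The GFP-positive arrays lay close together above the others, a 1.498-fold rise (log2 change 0.58 ± 0.09 SE, limma adjusted p = 0.0127). The call was lost without any 1 GFP-positive array (adjusted p up to 0.0639, log2 changes 0.57 to 0.61). With the mean of its 2 probe sets, the log2 change was 0.25 and did not pass either (adjusted p = 0.0872). Hspb6, a small heat shock protein gene and kinase substrate of smooth muscle, fell 1.29-fold (log2 change −0.37 ± 0.07 SE, limma adjusted p = 0.0329), a call that was likewise lost without any 1 array other than GFP-negative replicate 3 (up to 0.107). Mrvi1, which encodes the anchor IRAG of the Prkg1 kinase, had a log2 change of 0.05 (limma adjusted p = 0.766). Rgs2, a regulator of G protein signalling that the kinase acts on, had a log2 change of −0.40 (limma adjusted p = 0.381) and passed with the replicate block (0.0355).

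In the sister pathway of cAMP, 1 of 23 genes was higher and 3 were lower, with a median log2 change of −0.02. Pde7b, a cAMP phosphodiesterase gene, read 11.67, 11.48 and 11.05 in GFP-negative and 10.27, 10.15 and 9.78 in GFP-positive arrays. This is a 2.52-fold fall without overlap (log2 change −1.33 ± 0.19 SE, limma adjusted p = 0.00999), against the rise of Pde5a, Pde9a and Pde1a. The adenylyl cyclase genes Adcy2 and Adcy1 moved in opposite directions, by −0.63 ± 0.12 SE and 0.33 ± 0.06 SE (limma adjusted p = 0.0302 and 0.0212), and Pde4d fell by 0.27 on the log2 scale (limma adjusted p = 0.0348). The calls of Adcy1, Adcy2 and Pde4d were each lost in 5 of the 6 fits that left out an array, with adjusted p-values of up to 0.124. The exception was GFP-negative replicate 1 for Adcy1 and GFP-negative replicate 3 for Adcy2 and Pde4d. With all 6 arrays, Pde4d also lost its call with quantile normalization (adjusted p = 0.0868), median centring (0.0669), gene median centring (0.0876) and an intensity trend in eBayes (0.0661). Pde8b, at a log2 change of 0.30 (limma adjusted p = 0.197), passed with the replicate block (0.0388). The genes of the catalytic and regulatory subunits of protein kinase A all had log2 changes between −0.04 and 0.16 and did not pass.

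**Figure D5:**
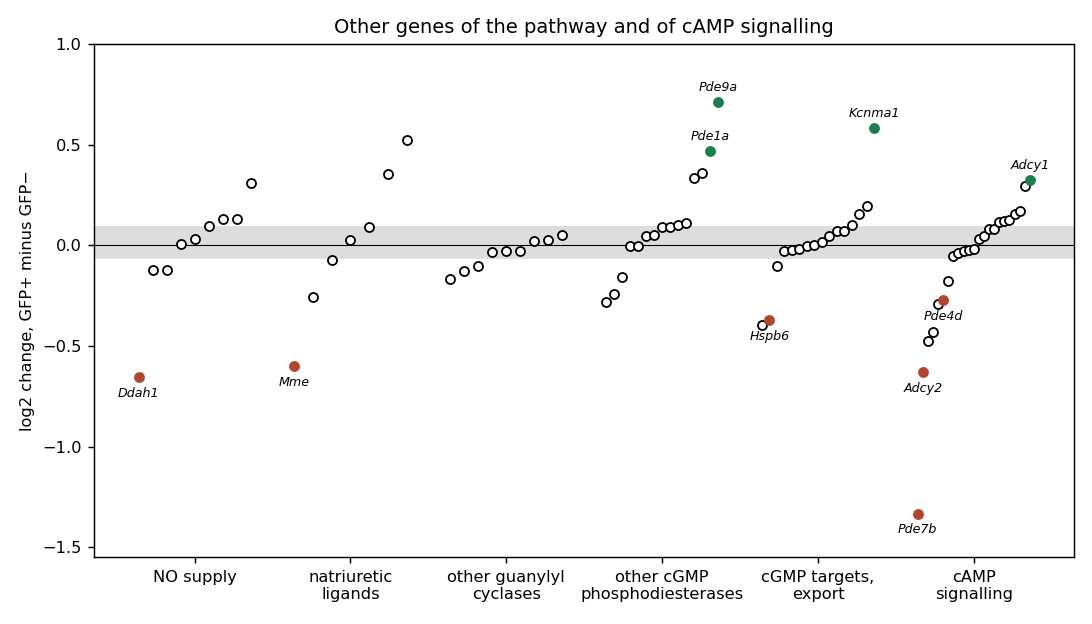
Log2 change (vertical axis, GFP-positive minus GFP-negative) of each measured gene in 6 lists of the pathway and of cAMP signalling, sorted within a list. Filled points passed limma's test (green higher, red lower) and carry their names, and the grey band runs from the lower to the upper quartile of all genes tested. Pde9a, Kcnma1, Pde1a and Adcy1 rose, and Pde7b fell most, by 1.33.

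The sort was followed by Ebf2 itself, with a log2 change of 3.35 ± 0.24 SE (limma adjusted p = 0.000916), and the 10 fibroblast markers had mean log2 levels between 13.19 and 13.31 in all 6 arrays. Of these markers 0 were called higher and 1 lower. That was Lum, with a log2 change of −0.34 (limma adjusted p = 0.0295), a call lost in 5 of the 6 fits that left out an array. Without overlap between the groups, 2 of the 10 markers lay higher and 3 lower. The 2 were Pdgfra, the gene of the sorted receptor, and Postn. Their log2 changes were 0.19 and 0.22 (limma adjusted p = 0.178 and 0.0505). In these bulk samples, fewer cells of a type and less RNA per cell cannot be told apart. Markers of other cell types moved with the groups. All 14 macrophage markers fell (mean log2 level 9.32 to 10.27 in GFP-negative and 7.06 to 8.09 in GFP-positive arrays), as did all 16 cartilage markers (10.23 to 10.46 and 8.76 to 9.07). Of these calls, 4 of 14 macrophage and 11 of 16 cartilage ones held in every fit that left out 1 array. Of 7 measured Schwann and neural crest markers, 2 fell and 1 rose (mean levels 8.67 to 8.99 and 8.39 to 8.62). Their median log2 change was −0.44, and only Ngfr, which rose, had a change above 0. Of 12 endothelial markers, 2 fell and 1 rose (mean levels 8.73 to 9.27 and 8.65 to 8.92, overlapping), and of 14 skeletal muscle markers 1 rose (7.32 to 7.58 and 7.45 to 7.71). The part of these cells in the changes of Prkg1, Prkg2, Npr3 and the pathway genes was not tested.

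Mural and smooth muscle cells are a known site of Gucy1a1, Gucy1b1, Pde5a and Prkg1. Of 16 markers of these cells, 4 fell and 1 rose. One of those that fell, Tagln, a gene of an actin-binding protein, lost its call with the replicate number as a block (limma adjusted p = 0.0524, in place of 0.0441), with quantile normalization (0.0519), with gene median centring (0.0553) and without any 1 array other than GFP-negative replicate 1 (up to 0.154). Their mean log2 level was 9.43 to 9.54 in GFP-negative and 9.35 to 9.43 in GFP-positive arrays. Cnn1, Acta2 and Rgs5, genes of contractile filaments and of pericytes, fell by 0.91, 0.63 and 0.65 on the log2 scale (limma adjusted p = 0.00106, 0.0045 and 0.00449), and Notch3 rose by 0.50 (adjusted p = 0.0293, a call lost without any 1 array other than GFP-negative replicate 1, up to 0.105). The median log2 change of the 16 markers was −0.01, and 8 of them had a change above 0. Of those that did not pass, Abcc9, Des, Actg2, Smtn, Mylk, Cspg4 and Mcam changed by 0.35, 0.32, 0.23, 0.16, 0.12, 0.09 and 0.09. Myh11, Pdgfrb, Kcnj8 and Lmod1, which did not pass either, changed by −0.26, −0.26, −0.15 and −0.10. The part of mural cells in the changes of Gucy1b1, Gucy1a1, Pde5a and Prkg1 was not tested.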

How the data were processed

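Biotin-labelled RNA of 6 sorted samples was hybridised to Affymetrix arrays. Expression was deposited on a log2 scale, 1 value for each probe set and array. RMA and limma are named, without versions, per the submitters' processing notes. The log2 scale was read from the values (array medians 6.66 to 6.71). Since RMA usually forces one distribution on all arrays, it would hide a change common to most genes. Of 41345 probe sets, 23521 list 1 gene in the platform table used here, 1814 list several and 16010 list none, controls included. Symbols were matched by gene identifier to RefSeq's GRCm38.p6 genes, and Irag1 was found as Mrvi1. For 1082 genes with several probe sets, the one with the highest mean over 6 arrays was used, which left 22180 genes and no filter on dim ones. Adcy3 and Itpr1 were not analysed here.

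Groups were compared in limma (version 3.58.1, under R 4.3.3; functions lmFit and eBayes) over the 6 arrays, with Benjamini-Hochberg adjustment over all genes. Errors beside means are SD and those beside changes are standard errors with limma's moderated variance. Scripts were tested on simulated data with independent noise and 200 changed genes. There the fit recovered 54.3% of log2 changes of 0.5, 87% of those of 1 and 98.5% of those of 2, and 5.34% of calls were false. A change of about 0.5 that did not pass may thus have been missed. Precision is limited by having 3 arrays per group. The 10 genes and the 13 lists were chosen with earlier results of these data known. Named genes are the 10 genes, Ebf2, up to 6 called genes per pathway list and up to 3 per marker list by smallest p, and the 5 nearest genes of the 2 largest changes. Nos1, Nos3, Nppc, Mrvi1, Pde3a, Rgs2, Pde8b, Notch3, Tagln, Pdgfra, Postn, the mural markers that did not pass and the neighbours of Gucy1b1 and Gucy1a1 were named after their values were seen.

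Same-numbered arrays of the groups deviated together from their group means (r = 0.314 to 0.519, others −0.384 to −0.0243, across genes, which are not independent). No label states that the numbers are pairs. They served as pairs only in the blocked fit and where same-numbered pairs are named. The main fit, which gave the adjusted p-values unless stated, had no block. Results of the blocked fit stand beside those calls that it alters. The alternatives were this block, quantile normalization, centring on the median of all probe sets or, added after seeing the data, of the genes, leaving out dim genes, averaging or separately testing probe sets, eBayes with trend or robust, array weights, and leaving out each array. Plots were drawn with matplotlib 3.10.9.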

Additional observations from a re-analysis of the deposited data

How the results depend on the processing

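Over 16 alternative settings, the calls of Gucy1b1, Gucy1a1 and Pde5a held in each, with log2 changes of 1.28 to 1.496, 0.74 to 0.91 and 0.49 to 0.59 and adjusted p-values of up to 0.0121, 0.0451 and 0.0386. With the replicate block, 3 members were higher and 1 lower as before, 1010 genes in all were higher in place of 588 and 1218 lower in place of 851 (1395 of the 1439 calls were shared), and pathway genes called higher were 7 in place of 4. The cause was not tested. Centring on the gene median, added after seeing the data, gave 868 higher and 749 lower genes, so 53.7% of calls were higher in place of 40.9%, moved the median change of all genes from 0.02 to 0.07 and kept the direction of all 10 genes. With 1 array left out, higher genes numbered 241 to 441 and lower genes 388 to 656, members called were 3 to 3 higher and 0 to 1 lower, and pathway genes called were 1 to 5 higher and 1 to 6 lower. Fewer arrays leave less power, and the counts fell most without a GFP-positive array (241 higher and 388 lower without replicate 1, 260 and 407 without replicate 2, 306 and 456 without replicate 3), while without GFP-negative replicate 2 higher genes numbered 357. Without that array the changes of Gucy1a2 and Npr2, neither of which passed, turned to −0.036 and −0.022 (ranges with 1 array left out −0.036 to 0.15 and −0.022 to 0.088). The difference between the changes of Prkg1 and Prkg2 ran from −0.18 to 0.25 and turned to −0.18 without GFP-negative and −0.06 without GFP-positive replicate 1. The other differences between paralogs kept their direction in each setting run, none of which used the dimmer probe set of Npr1 alone. Gucy1b2 has no value without dim genes. Dim probe sets, such as that of Gucy1b2, limit what can be seen.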
